A study of Homo sapiens with 8 samples.

Results

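PRKAG2-AS1 and SEPSECS-AS1 are long noncoding RNAs named as antisense to PRKAG2 and SEPSECS. Both were higher in LNCaP cells after 24 h with asporin than at 0 h, while neither protein-coding partner passed the test at any time. The rows of these 4 genes were taken by symbol from a table of 36474 genes. The antisense RNAs were selected on their measured rise at 24 h over 0 and 12 h in these same libraries, so their levels and changes are given as a description with no test. The protein-coding genes were chosen as their named partners and not for their own values, and they were tested.

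LNCaP is an established line from a human prostate carcinoma metastasis. Cells were starved for 6 to 12 h in medium lacking serum and calcium, then given 100 ng/mL of asporin (ASPN), a small proteoglycan of the extracellular matrix, in its human recombinant form. Poly(A) RNA gave 2 libraries before ASPN, 3 after 12 h of it and 3 after 24 h. No library kept for 12 or 24 h without ASPN was analysed here, so every group shares the starvation and the effects of ASPN and of time in the medium cannot be told apart. The labels call the replicates biological and the methods describe wells plated 3 at a time, so p-values measure the spread between cultures of 1 cell line.

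A natural antisense RNA is copied from the opposite strand of another gene. Some overlap the mRNA and can affect its splicing, stability or translation, some act on transcription at the shared locus, and many are byproducts of promoters that fire in both directions. PRKAG2 encodes the gamma-2 subunit of AMP-activated protein kinase (AMPK), the part of this energy sensor that binds AMP and ATP, and inherited changes in it cause a heart disease with glycogen storage. SEPSECS encodes the enzyme that turns phosphoseryl-tRNA into selenocysteinyl-tRNA, the last step in making the selenocysteine that selenoproteins carry.

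The first pair overlaps head to head. On GRCh38 the file places PRKAG2-AS1 (ENSG00000239911.2) on the plus strand of chromosome 7, from 151877042 to 151879223. PRKAG2 (ENSG00000106617.15) lies on the minus strand from 151556124 to 151877125, so 84 bases at the 5′ ends of both genes coincide. In GENCODE 44, a later annotation than the study's GENCODE 38, the first PRKAG2 exon runs to 151877214 and is 5′ UTR from 151876621 on, and PRKAG2-AS1 starts inside this UTR. The first exon block of the antisense RNA, 99 bases or 5.29% of its exon length, is shared with PRKAG2, and the other block of 1771 bases shares none. PRKAG2 has 35 transcripts in that annotation, of which 5 start within 1000 bases of the antisense start. The other 30 start more than 50 kb away and do not reach the overlap. The gene-level count pools all of them, and which of them the reads came from was not tested.

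The second pair does not overlap, which goes against its name. SEPSECS-AS1 (ENSG00000281501.1) occupies 25160641 to 25201440 on the plus strand of chromosome 4. SEPSECS (ENSG00000109618.13) lies on the minus strand from 25120014 to 25160550. The genes point away from each other across a gap of 90 bases, and 9 of the 14 SEPSECS transcripts start within 1000 bases of the antisense start. RefSeq names the RNA SEPSECS-DT, a divergent transcript. In contrast, 99.9% of the SEPSECS-AS1 span lies within PI4K2B, a gene for a phosphatidylinositol 4-kinase on the same strand. Of the 2 annotated PI4K2B transcripts, 1 starts 22 bases from the SEPSECS-AS1 start. The other starts 73392 bases from it, past the end of SEPSECS-AS1. The last SEPSECS-AS1 exon block holds 3973 bases, 91.2% of the exon length, and shares no base with a PI4K2B exon. Unspliced PI4K2B RNA from the nearer start crosses that block on the same strand, and counting by strand does not keep such reads apart.

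**Figure D1:**
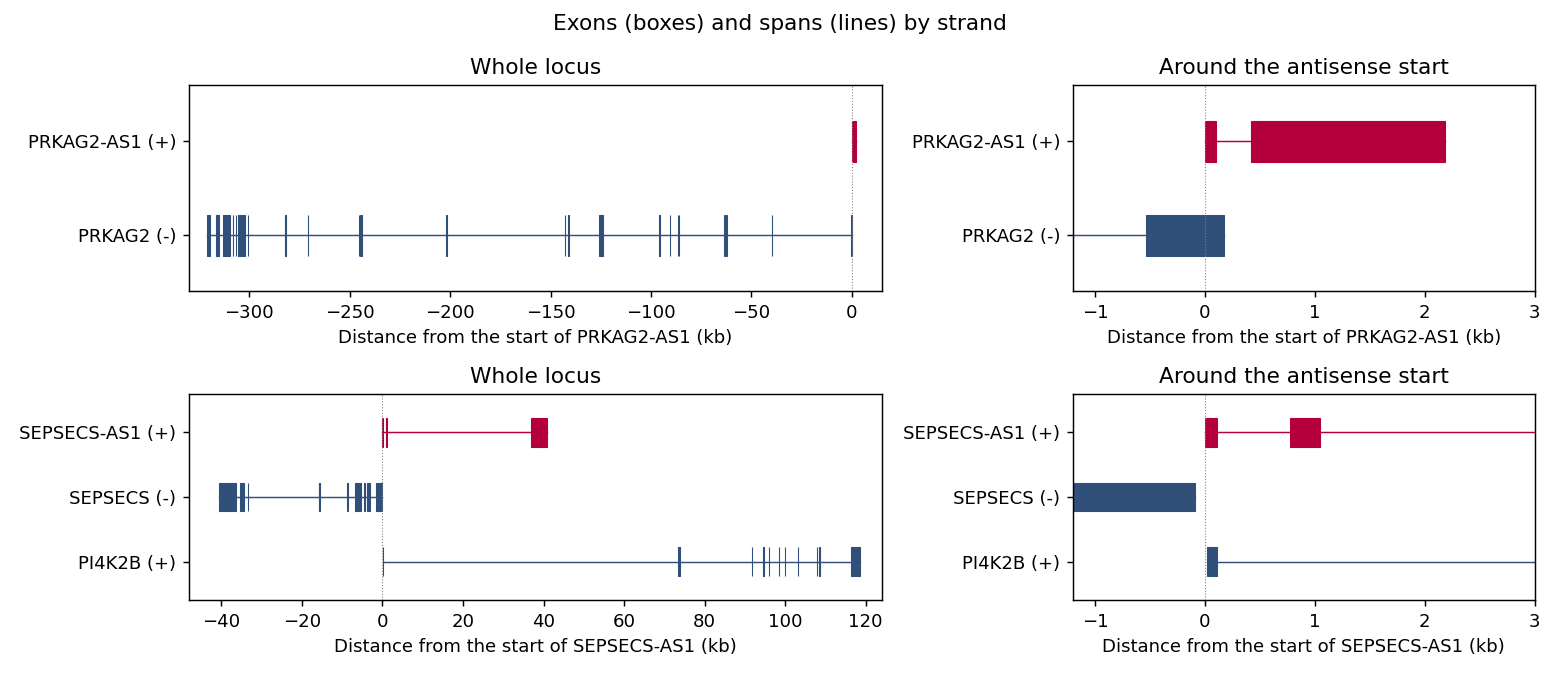
Exons (boxes, GENCODE 44) and spans (lines) of the genes at the PRKAG2-AS1 locus (top) and the SEPSECS-AS1 locus (bottom), against distance in kb from the start of the antisense RNA. The right panels enlarge the start. The first block of PRKAG2-AS1 lies within the first PRKAG2 exon. SEPSECS ends before SEPSECS-AS1 begins, and the nearer of 2 PI4K2B starts lies 22 bases after that of SEPSECS-AS1.

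Promoter windows of 250 bases before to 50 after each start were taken from RefSeq (GRCh38.p14) for PRKAG2-AS1 and PRKAG2. The outermost PRKAG2 start, 1 of 5, lies 73 bases from the antisense start, so both windows cover 26 common bases. Its window, chr7:151877066-151877365, has a GC content of 71.3% and a CpG observed-to-expected ratio of 0.899, against medians of 58.7% and 0.579 over 35116 windows. The PRKAG2-AS1 window, chr7:151876792-151877091, has 53.3% GC and a ratio of 0.762. The stretch ahead of every annotated PRKAG2 exon, shown because it lies between the antisense exon blocks, reads 5′ to 3′ on the PRKAG2 strand (chr7:151877215-151877365, minus strand):

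PRKAG2 upstream: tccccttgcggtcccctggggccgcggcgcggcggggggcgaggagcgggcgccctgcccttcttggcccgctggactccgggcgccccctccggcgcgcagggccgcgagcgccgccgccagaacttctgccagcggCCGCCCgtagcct

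Capitals mark a match to GGGCGG, the GC box, read on the opposite strand. It is 1 of 2 in the outermost PRKAG2 window, and 45.0% of all windows hold this motif on either strand. Neither this window nor that of PRKAG2-AS1 held TATAAA (11.5% of windows), CCAAT (34.6%), CACGTG (7.26%), TGACGTCA (1.85%), TTTGGCGC (0.652%) or the NRF1 motif (1.24%), searched on both strands. No GGGCGG was found in the PRKAG2-AS1 window.

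PRKAG2-AS1 was counted with 77 and 55 reads at 0 h, with 104, 84 and 134 at 12 h, and with 262, 221 and 119 at 24 h. In CPM (reads scaled to library size with TMM factors) these are 0.874 and 0.757 at 0 h, 1.35, 0.942 and 1.53 at 12 h, and 2.88, 2.29 and 1.62 at 24 h. The means were 0.815 ± 0.0833 (SD, n = 2), 1.28 ± 0.303 (n = 3) and 2.26 ± 0.630 (n = 3) CPM. Every 12 h library exceeded both 0 h libraries and every 24 h library exceeded all others, but the lowest at 24 h, 1.62 CPM with a 95% Poisson interval of 1.34 to 1.94, sat just above the highest at 12 h, 1.53 with 1.29 to 1.82. The log2 change was 0.64 (SE 0.25) from 0 to 12 h, 0.83 (SE 0.21) from 12 to 24 h and 1.47 (SE 0.25) over the whole interval, a fold of 2.77.

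For SEPSECS-AS1 the estimated change from 0 to 12 h was smaller than for PRKAG2-AS1, and this difference was not tested. SEPSECS-AS1 counts were 96 and 82 at 0 h, 89, 99 and 126 at 12 h, and 196, 229 and 138 at 24 h. The corresponding levels were 1.09 and 1.13 CPM, then 1.15, 1.11 and 1.44 CPM, then 2.15, 2.37 and 1.88 CPM. Group means were 1.11 ± 0.0268 (SD, n = 2), 1.24 ± 0.181 (n = 3) and 2.13 ± 0.245 (n = 3) CPM. The 12 h libraries overlapped those at 0 h, and all 24 h libraries lay above the rest. Its log2 change was 0.16 (SE 0.21) from 0 to 12 h, 0.79 (SE 0.18) from 12 to 24 h and 0.95 (SE 0.21) from 0 to 24 h, a fold of 1.93.

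PRKAG2 ran between 15.9 and 18.6 CPM in all 8 libraries. It measured 17.8 and 15.9 CPM at 0 h, 16.0, 16.6 and 16.3 at 12 h, and 17.0, 18.3 and 18.6 at 24 h, on 1157 to 1766 reads. The 0 h libraries enclosed all those at 12 h, while the 24 h libraries stood narrowly above them. The log2 change was -0.049 from 0 to 12 h (95% interval -0.20 to 0.10; adjusted p = 0.761 by the edgeR quasi-likelihood test with Benjamini-Hochberg adjustment over 21071 genes) and 0.085 from 0 to 24 h (-0.066 to 0.24; adjusted p = 0.514). Between 12 and 24 h it was 0.13 (-0.00014 to 0.27), with an unadjusted edgeR p of 0.0502 and an adjusted p of 0.368. These libraries did not overlap, which was also true of 19.6% of all genes tested in that comparison.

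SEPSECS ranged from 23.8 to 27.4 CPM. It stood at 27.4 and 25.0 CPM at 0 h, 25.9, 25.7 and 26.4 at 12 h, and 25.7, 23.8 and 25.0 at 24 h, on 1819 to 2413 reads. The lowest 12 h library was barely above the highest at 24 h, and the 0 h libraries overlapped both. The log2 change was -0.013 from 0 to 12 h (-0.14 to 0.12; edgeR adjusted p = 0.936), -0.080 from 0 to 24 h (-0.21 to 0.051; adjusted p = 0.469) and -0.067 from 12 to 24 h (-0.18 to 0.050; adjusted p = 0.684).

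**Figure D2:**
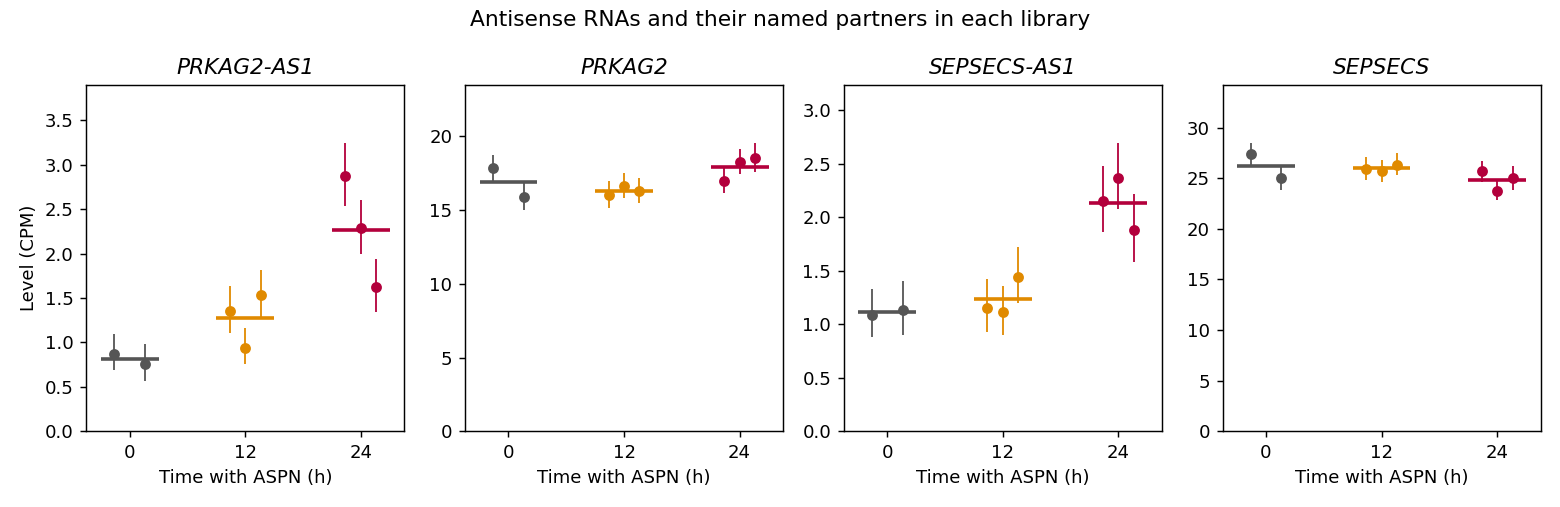
Level in CPM (linear axes from 0, scaled separately) of the 4 genes against hours with ASPN, with 1 point per library, its 95% Poisson interval, and the group mean as a line (2, 3 and 3 libraries). PRKAG2-AS1 goes from means of 0.815 to 2.26 CPM and SEPSECS-AS1 from 1.11 to 2.13, whereas PRKAG2 stays within 15.9 to 18.6 and SEPSECS within 23.8 to 27.4 CPM.

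The share of a pair's raw reads that fell to the antisense RNA needs no scaling between libraries. For PRKAG2-AS1 with PRKAG2 it was 4.67% and 4.54% at 0 h, 7.76%, 5.36% and 8.61% at 12 h, and 14.5%, 11.1% and 8.03% at 24 h. On this measure the lowest 24 h library (8.03%, exact Clopper-Pearson 95% interval 6.70 to 9.53) fell below the highest at 12 h (8.61%, 7.26 to 10.1), so these groups overlapped although the CPM values did not. All libraries at 12 and 24 h remained above both at 0 h.

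For SEPSECS-AS1 with SEPSECS the share was 3.83% and 4.31% at 0 h, 4.27%, 4.14% and 5.19% at 12 h, and 7.74%, 9.06% and 6.99% at 24 h. The 24 h libraries stayed clear of the others. Set against PI4K2B instead, the share was 4.99% and 5.48%, then 6.07%, 4.96% and 6.98%, then 10.8%, 11.1% and 9.26%. Again the 24 h libraries were highest. Such intervals leave out the spread between cultures. They can be too narrow even for counting error, since reads that carry no molecular identifier need not come from separate molecules.

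**Figure D3:**
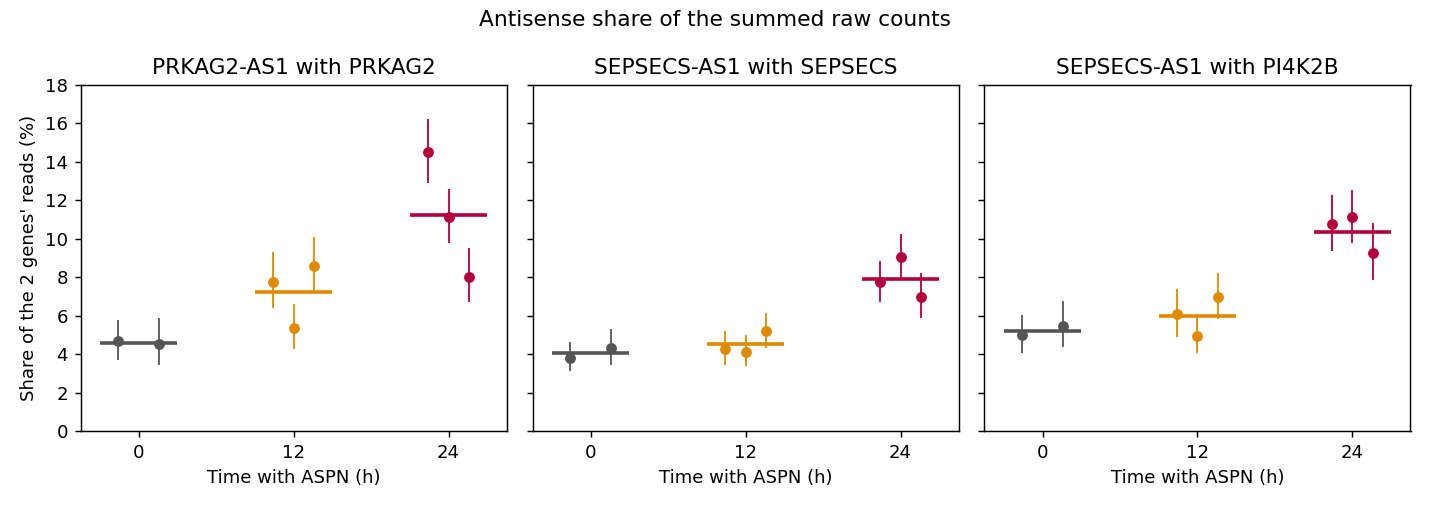
Share (%) of the summed raw reads of a gene pair that were counted for the antisense RNA, against hours with ASPN, with 1 point per library, its exact 95% binomial interval, and the group mean as a line. For PRKAG2-AS1 the 24 h libraries spread from 8.03% to 14.5% and reach into the 12 h range, while for SEPSECS-AS1 all lie above the 12 h libraries against either partner.

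On the log2 scale the antisense RNA gained on its partner by 0.69 for the PRKAG2 pair and by 0.17 for the SEPSECS pair from 0 to 12 h. Between 12 and 24 h the gains were 0.70 and 0.86. Levels per length set the pairs apart in another way. Per kb of merged exon, PRKAG2-AS1 averaged 0.436 CPM at 0 h and 1.21 at 24 h, against 1.02 and 1.08 for PRKAG2, whose merged exons of 16.58 kb pool many alternative transcripts. SEPSECS-AS1 averaged 0.255 CPM per kb at 0 h and 0.490 at 24 h, against 2.75 and 2.60 for SEPSECS. At 24 h PRKAG2-AS1 measured 1.54, 1.22 and 0.866 CPM per kb and PRKAG2 1.02, 1.10 and 1.12. By this measure the antisense value was above that of its partner in replicates 1 and 2 and under it in replicate 3. This order depends on the merged length of PRKAG2, which need not be that of its transcripts in these cells. Lengths came from GENCODE 44 while reads were counted on GENCODE 38, and the versions of PRKAG2 and PRKAG2-AS1 differ between them. Before division by length, PRKAG2-AS1 had 2.88, 2.29 and 1.62 CPM and PRKAG2 17.0, 18.3 and 18.6. Per kb, SEPSECS-AS1 was under SEPSECS in all 3 replicates at 24 h.

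Genes within 200 kb of either pair were examined because the rise of a noncoding RNA can be part of a change over a whole region. Of 16 such genes, 9 had enough reads to be tested. From 0 to 24 h, 2 rose and 1 fell by edgeR adjusted p, against 16.3% of all genes past that threshold in either direction. PI4K2B, which encloses SEPSECS-AS1, ran from 17.9 to 21.3 CPM. It measured 20.8 and 19.4 CPM at 0 h, 17.9, 21.3 and 19.2 at 12 h, and 17.9, 18.9 and 18.4 at 24 h. The 24 h libraries were below those at 0 h, and the log2 change was -0.13 (95% interval -0.28 to 0.023; edgeR adjusted p = 0.281). From 12 to 24 h it was -0.081 (-0.22 to 0.055; adjusted p = 0.666). The gene-level count of PI4K2B, which pools both of its starts, thus had a negative estimate where SEPSECS-AS1 had a positive one. Whether intronic PI4K2B reads contributed to the SEPSECS-AS1 count was not tested.

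LGI2, a secreted leucine-rich repeat protein of the nervous system, is encoded beyond the far end of SEPSECS. It measured 5.99 and 5.60 CPM at 0 h, 7.50, 7.32 and 7.96 at 12 h, and 8.20, 8.25 and 9.91 at 24 h, in 3 groups that did not overlap. It rose by 0.60 (SE 0.11) from 0 to 24 h (edgeR adjusted p = 9.93e-05) and by 0.39 from 0 to 12 h (adjusted p = 0.0137, but up to 0.0859 without either 0 h library or 12 h replicate 3). CCDC149, a coiled-coil protein gene next to it, fell by 0.37 (SE 0.059) from 0 to 24 h (adjusted p = 1.99e-05), from 44.7 and 43.4 CPM to 32.8, 36.2 and 33.2. ZCCHC4, which encodes a ribosomal RNA methyltransferase, and ANAPC4, for a subunit of the anaphase-promoting complex, had log2 changes of -0.076 and -0.028 (adjusted p = 0.650 and 0.859).

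On chromosome 7, GALNT11, which encodes an enzyme that starts O-linked glycosylation, lies upstream of PRKAG2. It rose by 0.23 (SE 0.051) from 0 to 24 h (edgeR adjusted p = 0.00154), from 52.1 and 51.3 CPM to 61.9, 59.9 and 60.2. RHEB, the small GTPase that activates mTORC1, lies beyond the 3′ end of PRKAG2 and had a log2 change of -0.12 (adjusted p = 0.173). NUB1, which lowers levels of the ubiquitin-like protein NEDD8, had one of -0.13 (adjusted p = 0.122) and had fallen by 0.17 at 12 h (adjusted p = 0.0417, but up to 0.298 without either 0 h library, 12 h replicate 1 or 3, or any 24 h library). WDR86 held 0 to 25 reads per library and did not pass the test. Between 12 and 24 h, when both antisense RNAs climbed, 0 of the 9 neighbours passed at an edgeR adjusted p of 0.05 (1 by DESeq2) and 3 had an unadjusted p under it, against 2.72% of all genes past the adjusted threshold.

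**Figure D4:**
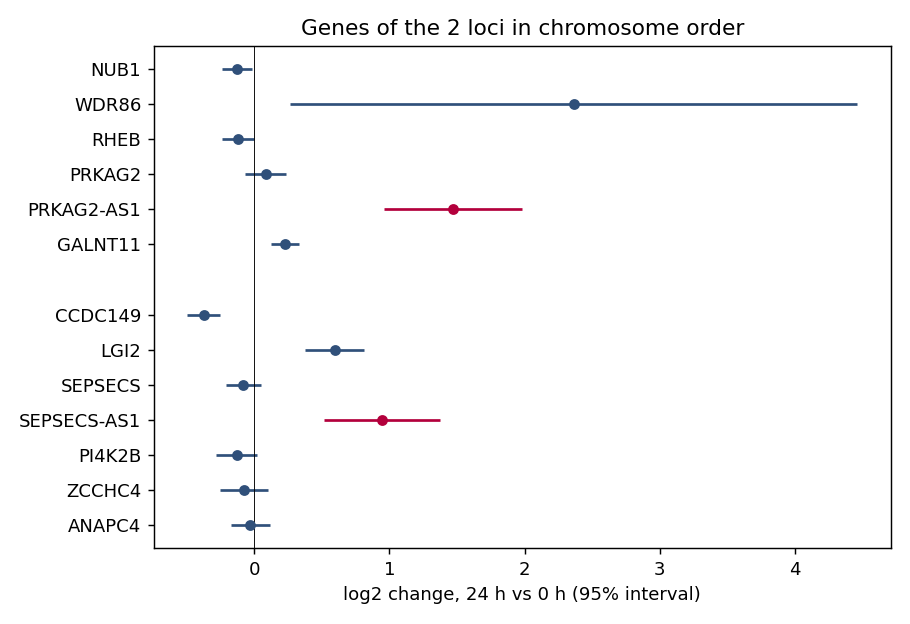
Log2 change from 0 to 24 h with its 95% interval (edgeR, 3 against 2 libraries) for the genes at both loci in chromosome order, chromosome 7 above and chromosome 4 below, with the antisense RNAs in red. PRKAG2-AS1 (1.47) and SEPSECS-AS1 (0.95) stand far to the right of PRKAG2 (0.085), SEPSECS (-0.080) and PI4K2B (-0.13), and the interval of WDR86 is wide because it had 0 to 25 reads.

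AMPK is built from a catalytic alpha, a scaffold beta and a nucleotide-binding gamma subunit, is switched on by the LKB1 complex and CaMKK2, and phosphorylates enzymes and regulators of lipid synthesis, mTORC1 and autophagy. Of a list of 23 genes for these roles, 22 were tested. From 0 to 24 h, 2 rose and 2 fell by edgeR adjusted p (18.2%, against 16.3% of all genes), with a list median of 0.013 against -0.0031 over all genes. Among the subunits, PRKAB2, a beta subunit, fell by 0.30 (SE 0.078; adjusted p = 0.00544), from 18.3 ± 0.977 (SD, n = 2) to 14.9 ± 1.31 CPM (n = 3). Of the upstream kinases, CAMKK2, which answers calcium, rose by 0.25 (SE 0.046; adjusted p = 0.000207), from 119 ± 5.19 (n = 2) to 141 ± 3.18 CPM (n = 3), and CAMKK1 rose by 0.21 (SE 0.067; adjusted p = 0.0288). TBC1D4, a substrate that controls glucose transporter traffic, fell by 0.20 (adjusted p = 0.0341).

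At 12 h, PRKAB2 had fallen by 0.32 (edgeR adjusted p = 0.00507) and TSC2, a brake on mTORC1 that AMPK phosphorylates, had risen by 0.15 (adjusted p = 0.0463). These were 9.09% of the list, against 11.6% of all genes. None of the list passed from 12 to 24 h by edgeR or DESeq2, and 3 had an unadjusted edgeR p of at most 0.05. Leaving out the numbered 0 h library leaves a single library at 0 h. Fewer genes then passed at 12 and 24 h, in the list and over all genes, and PRKAB2 passed at neither time. CAMKK1 also lost its call without any 1 of the 24 h libraries (up to 0.371), PRKAB2 at 24 h without 24 h replicate 2, and TSC2 without 12 h replicate 1 or 3 or any 24 h library (up to 0.461). PRKAG1, the other gamma subunit in the file, had at most 125 reads, against 1766 for PRKAG2, whose merged exons are longer. Per kb of merged exon in GENCODE 44 their means at 0 h were 0.240 and 1.02 CPM. How the unstated counting options affected PRKAG1 was not tested.

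The selenocysteine list held 34 genes, with the enzymes and factors that make and insert selenocysteine and the selenoproteins themselves, and 32 were tested. From 0 to 24 h, 3 rose and 7 fell by edgeR adjusted p, or 31.2%, against 16.3% of all genes. The list's genes had a median of 4201 normalized reads against 519 over all genes tested, so a change of a given size is easier to detect in it. Its median log2 change was -0.077. In the machinery, SEPHS2, which supplies selenophosphate to SEPSECS and is itself a selenoprotein, fell by 0.50 (SE 0.046; adjusted p = 1.45e-09), from 210 ± 11.9 (SD, n = 2) to 149 ± 4.53 CPM (n = 3). SARS1, which loads serine on the tRNA that SEPSECS later modifies, fell by 0.41 (SE 0.045; adjusted p = 5.49e-08), from 499 ± 12.6 to 376 ± 6.82 CPM.

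Among the selenoproteins, SELENOK of the endoplasmic reticulum fell by 0.64 (SE 0.054; edgeR adjusted p = 2.50e-10), from 73.4 ± 3.95 (n = 2) to 47.2 ± 2.16 CPM (n = 3). It was the list's only gene past both the adjusted p and a 1.5-fold change at 24 h, a pair of criteria met by 2.45% of all genes. At 12 h, 3 of the list had risen and 6 had fallen (28.1%, against 11.6% of all genes), with SEPHS2 at -0.41, SELENOK at -0.40 and SARS1 at -0.29 (adjusted p = 3.03e-07, 3.67e-06 and 3.81e-05). SELENOK alone passed between 12 and 24 h (log2 change -0.23, adjusted p = 0.00556; up to 0.0838 without 24 h replicate 1). SEPSECS, with -0.080, was not among the 7 that fell at 24 h.

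The file held 1087 antisense RNAs named after a gene on the other strand, of which 648 were tested. Their summed share of all counts was 0.275% to 0.280% at 0 h, 0.270% to 0.277% at 12 h and 0.267% to 0.270% at 24 h, and their median log2 change from 0 to 24 h was -0.048. In that comparison 15 were higher and 31 lower by edgeR adjusted p (7.10%, against 16.3% of all genes). This class has a median of 81.7 normalized reads, so small changes are hard to detect in it. With a 1.5-fold change also required, 7 were higher and 9 lower (2.47%, against 2.45% of all genes). At 12 h, 0 were higher by both criteria with edgeR or DESeq2 and 2 were lower with edgeR, while 1.05% of all genes met them. By edgeR adjusted p alone 6 were higher and 13 lower (2.93%, against 11.6% of all genes), and by unadjusted p 28 were higher.

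From 12 to 24 h the only antisense RNAs higher by both criteria were PRKAG2-AS1 and SEPSECS-AS1 themselves, which is how they were chosen, against 0.18% of all genes in either direction. Just outside the choice, among 291 antisense RNAs with a mean of at least 100 normalized reads, CALML3-AS1 came next with a log2 change of 0.66 (SE 0.21). From 0 to 24 h BOLA3-AS1 followed with 0.70 (SE 0.21). Libraries did not overlap between 0 and 24 h for 43.2% of all genes and between 0 and 12 h for 36.9%, so the separation of the groups is common in these data.

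Both antisense RNA and sense gene were tested in 617 pairs. Of the 7 antisense RNAs higher at 24 h by both criteria, the members included, 0 had a sense gene past the adjusted p of edgeR or DESeq2 in either direction, and 1 had one with an unadjusted edgeR p of at most 0.05. Of all 933 sense genes tested, 224 (24%) passed the edgeR adjusted p in either direction, so 0 among 7 says little. Of the 8 antisense RNAs that were lower, 5 had a sense gene that was lower by adjusted p, as were 133 of all 933 sense genes tested. The difference between the antisense RNAs that were higher and those that were lower was not tested. BOLA3-AS1, like SEPSECS-AS1, starts close to its partner (95 bases) without overlapping it, and rose by 0.70 (adjusted p = 0.0215). BOLA3, for a mitochondrial iron-sulfur cluster factor, had a log2 change of 0.11 (adjusted p = 0.529). ELFN1-AS1 rose by 0.62 (adjusted p = 2.36e-05), with ELFN1 at -0.083 (adjusted p = 0.806). BOLA3-AS1 no longer passed without either 0 h library or without 24 h replicate 3 (edgeR adjusted p of up to 0.190).

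Among the well-counted antisense RNAs that were lower, SLC7A11-AS1 fell by 0.93 (edgeR adjusted p = 0.0131) and SLC7A11, the cystine importer, by 0.95 (adjusted p = 8.84e-10). VLDLR-AS1 fell by 0.66 (adjusted p = 1.40e-05) and VLDLR, a lipoprotein receptor, by 0.26 (adjusted p = 0.00373). BTG3-AS1 fell by 0.63 (adjusted p = 0.0285) and BTG3, an antiproliferative factor, by 0.29 (adjusted p = 0.00255). Without the numbered 0 h library SLC7A11-AS1, BTG3-AS1, VLDLR and BTG3 did not pass (adjusted p of up to 0.178, 0.179, 0.204 and 0.0666). SLC7A11-AS1 also failed without 24 h replicate 1, and BTG3-AS1 without the unnumbered 0 h library or 24 h replicate 1 or 2. These pairs share 260 to 865 exon bases. Since the counting's strand setting was not stated, reads of a pair may have been exchanged there, and its part in these parallel falls was not tested.

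**Figure D5:**
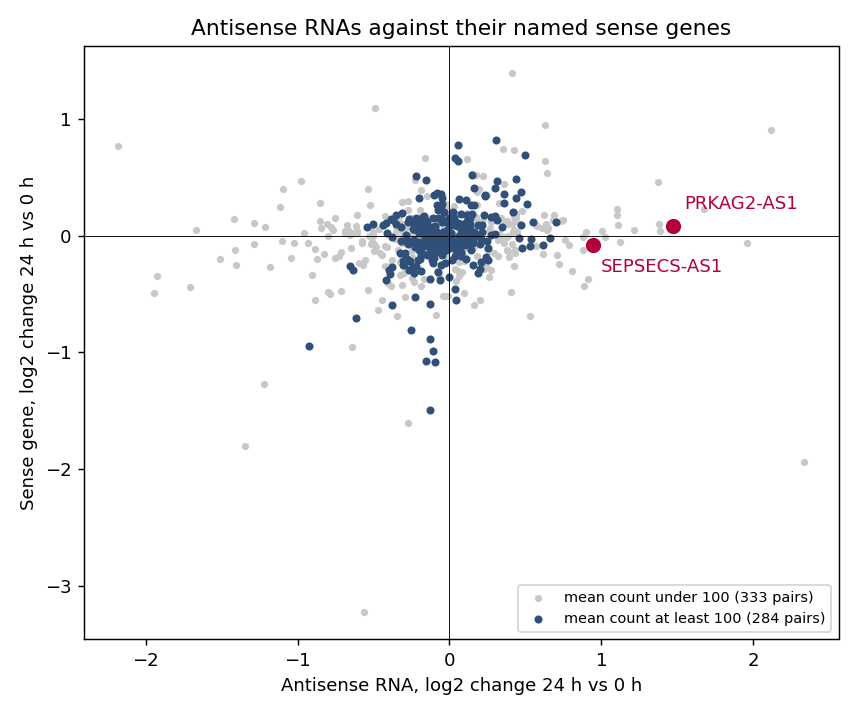
Log2 change from 0 to 24 h of the antisense RNA (horizontal) and of its named sense gene (vertical) for 617 pairs, with blue points for antisense RNAs with a mean of at least 100 normalized reads, grey for the others and red for PRKAG2-AS1 and SEPSECS-AS1. The red points lie at 1.47 and 0.95 horizontally and near 0 vertically (0.085 and -0.080).

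Likeness of pattern was measured as the root mean square difference of log2 CPM over the 8 libraries, each gene centred on its own mean, among 12673 well-counted genes. Both antisense RNAs were selected on the same rise in these libraries, which largely sets their likeness to each other. The genes most like PRKAG2-AS1 were ADGRB2, an adhesion G protein-coupled receptor (0.22), SEPSECS-AS1 (0.29) and FJX1 (0.30). Those most like SEPSECS-AS1 were PNMA3 (0.17), LINC00161 (0.19) and TUBA1A (0.19), an alpha-tubulin gene with close paralogs whose reads may be shared. PRKAG2 was nearest to PON2 (0.023), FYTTD1 (0.027) and RETREG1 (0.027). SEPSECS was nearest to CFLAR (0.024), CEP135 (0.024) and LIMCH1 (0.028). The root mean square of each member around its own mean was 0.081 for PRKAG2 and 0.056 for SEPSECS. It was 0.62 for PRKAG2-AS1 and 0.43 for SEPSECS-AS1, so the smaller differences of the protein-coding genes do not mark closer likeness.

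Libraries held 73406825 to 96962135 counts, and a count of 0 allows up to 0.0309 to 0.0409 CPM, taking 3 counts as the limit. Mitochondrial genes took 6.20% to 7.32% of counts in all libraries. The 9 luminal prostate markers were all detected, summing to 4658 to 4798 CPM at 0 h, 5307 to 5365 at 12 h and 5264 to 5471 at 24 h. Leukocyte markers summed to at most 0.136 CPM. Of the fibroblast markers, DCN reached at most 0.0681 CPM and COL1A1 18.8 to 21.4, and of the endothelial ones VWF held 11.2 to 17.1 CPM with PECAM1 and CDH5 at or near 0.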

How the data were processed

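RNA from LNCaP cells was sequenced as paired-end poly(A) libraries. The authors deposited raw counts of reads for each gene. The authors trimmed reads with Cutadapt, aligned them to GRCh38.p13 with STAR and counted GENCODE 38 genes with featureCounts, without normalization. Strand, read-pair and multi-mapping options are not given in the sources used here. The authors left out a time-0 library for quality. A time-0 column with a number that no time-0 label carries was used as a 0 h library without a replicate number.

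Genes were tested with edgeR 4.0.16 in R 4.3.3 (TMM, filterByExpr, robust quasi-likelihood F test, 1 coefficient per time point, all 8 libraries), which kept 21071 genes. A gene met both criteria at an adjusted p (Benjamini-Hochberg) of 0.05 or less and a fold of at least 1.5, as in the study. The steps were tested on simulated data. The biological coefficient of variation was 5.59%. No pair of replicates agreed within sampling noise (chi-square per degree of freedom 5.32 to 15.2). Exons came from GENCODE 44, whose coordinates equalled the file's for 30996 of 30996 genes with the same versioned ID. The versions of PRKAG2 and PRKAG2-AS1 differ.

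The members, gene lists and tests were chosen with earlier results of these data known. Named were the members, tested genes within 200 kb, up to 3 list genes of smallest p per comparison (with TBC1D4 named afterwards to complete a count), the 3 antisense RNAs with the largest rise and fall at 24 h (1 of these pairs is not reported here), and the 3 genes nearest each member. CALML3-AS1, PRKAG1 and single markers were named after their values were seen. Alternatives were RLE and upper-quartile normalization, DESeq2 1.42.0, other filters, fewer time points or gene types, a replicate block, and leaving out each library.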

Additional observations from a re-analysis of the deposited data

How the results depend on the processing

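Over 15 alternatives (16 from 12 to 24 h), the log2 change of PRKAG2-AS1 ranged from 1.26 to 1.66 between 0 and 24 h and from 0.62 to 1.02 between 12 and 24 h. That of SEPSECS-AS1 ranged from 0.87 to 1.03 and from 0.70 to 0.92. Neither PRKAG2 nor SEPSECS passed an adjusted p of 0.05 under any of them (lowest 0.282 and 0.251). Their near-zero change at 12 h turned sign: SEPSECS was 0.00043 with upper-quartile normalization and 0.054 without ASPN_0h replicate 1, and PRKAG2 was 0.037 without that library. Leaving out each library in turn gave ranges of -0.12 to 0.037 for PRKAG2 and -0.066 to 0.054 for SEPSECS there.

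Counts past the adjusted p moved with single libraries, over all genes tested as well as in the gene lists. At 12 h the AMPK list had 0 to 5 (1 with the compared time points only), the selenocysteine list 4 to 12 and the antisense RNAs 3 to 23, against 2, 9 and 19. At 24 h the ranges were 1 to 4, 5 to 13 and 14 to 50, against 4, 10 and 46, with 14 antisense RNAs without the numbered 0 h library and 28 and 29 without 24 h replicates 1 and 2. From 12 to 24 h they were 0 to 1, 0 to 2 and 0 to 6, against 0, 1 and 5. The cause of these shifts was not tested, and neither was the part played by the smaller number of libraries. Of 421 values for the 28 results of named genes other than the members, 374 kept their side of the threshold and direction, 46 no longer passed and 1 turned sign, that of ELFN1, which had not passed (0.035; range without each library -0.22 to 0.035). LGI2 at 24 h ranged from 0.50 to 0.64 and passed the adjusted p in all 15, while NUB1 at 12 h passed in 4 of 15.

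Whether replicate numbers pair the 12 and 24 h samples was not settled. Correlations of deviations for the same number were 0.10, 0.027 and 0.029. They were the highest for both samples of replicate 1 but not for every sample. With a replicate block on the 12 and 24 h libraries, 42 genes met both criteria, against 39 in the same libraries without it, and PRKAG2-AS1 changed by 0.82, SEPSECS-AS1 by 0.79, PRKAG2 by 0.13 and SEPSECS by -0.070. No block was possible against 0 h, where a single library carries a number. About 55 to 262 reads per library limit the antisense values.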
